A study of Sus scrofa with 12 samples.

Results

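The genes of the interleukin 1 (IL1) and IL6 families were examined in primary porcine arterial endothelial cells (ECs) kept under laminar shear stress. They were 9 of the 21153 genes in the count table, namely the ligands IL1A, IL18, IL6, IL11 and LIF and the receptor chains IL1R1, IL1RAP, IL1RL1 and IL6ST. All 9 were matched to the table by symbol. IL1A was chosen because its counts differed between the 2 sets of cultures at 30 dyne/cm2, and the others as members of the same families. In these cells IL6ST was highest and IL11 and IL1RAP were lowest at 2 dyne/cm2, IL1R1 was lowest at 80 dyne/cm2, and IL1A differed far more between donors than between shear stresses.

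IL1 family ligands bind receptors on the cell surface, and IL1RAP is the accessory chain of the receptors of IL1 and IL33, while IL18 uses an accessory chain of its own. The bound complex signals through MYD88 and IRAK kinases to NF-kB, and in ECs this raises adhesion molecules and chemokines. IL1A is made as a precursor that can be released from damaged cells, whereas IL18 must be cleaved before it can signal. Of the IL6 family ligands, IL6, IL11 and LIF each use a receptor complex that contains IL6ST, also called gp130. They signal through JAK kinases and STAT3.

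ECs of 3 pigs, called donors 1 to 3 here, were exposed for 48 h to 2, 30 or 80 dyne/cm2, the low, physiological and supra-high wall shear stress of the study. From each donor came 1 culture at the low, 1 at the supra-high and 2 at the physiological shear stress, and these last are called set 1 and set 2 after the numbering in the labels. The labels call the cells aortic, and the methods describe coronary arteries of 8-month-old pigs from a slaughterhouse; no group carried a genetic change or a drug. All cells grew in DMEM with fetal calf serum and heparin on gelatin. The design text gives 1 type of slide and seeding density for 2 dyne/cm2 and another for 80 dyne/cm2, each with its own control at 30 dyne/cm2, while the methods name 1 slide. Which set used which slide is not written in the labels. Set 1 was used as the control of 2 dyne/cm2 and set 2 as the control of 80 dyne/cm2, and the values against the other set are given where they change a result.

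The 12 libraries held 29606854 to 41058902 counts. Levels are in CPM, read counts scaled to a common library size and by the trimmed mean of M values (TMM). Of 10 endothelial markers 7 were found in the table by symbol. Their summed level was 4623 to 5647 CPM at 2 dyne/cm2, 6396 to 7853 in the 2 sets and 8248 to 8313 under 80 dyne/cm2. By the test described below, 1 of these 7 was lower at 2 dyne/cm2 than in set 1 and 0 were higher. Between 80 and 2 dyne/cm2, 2 were higher and 0 lower. The mean of TEK was 65.5 CPM at 2 dyne/cm2, 499 in set 1, 450 in set 2 and 530 under 80 dyne/cm2. Among leukocyte markers, PTPRC, CD163, CD3E, LYZ and MS4A1 had at most 3 counts in every library, and the sum over all 10 markers was 8.35 to 28.9 CPM. Of the 2 leukocyte markers that could be tested, 1 was lower at 2 dyne/cm2 than in set 1, and 1 was higher at 80 than at 2 dyne/cm2. The 9 smooth muscle and fibroblast markers summed to 15.9 to 22.4 CPM in donor 2 and to 39.2 to 223 CPM in donors 1 and 3, with DES at 0 throughout. By shear stress their sum was 20.9 to 195 CPM at 2 dyne/cm2, 18.9 to 223 in the 2 sets and 15.9 to 119.7 under 80 dyne/cm2. Of the 5 that could be tested, PDGFRB was higher at 2 dyne/cm2 than in set 1, and between 80 and 2 dyne/cm2 LMOD1 was higher while PDGFRB, COL1A1 and COL1A2 were lower. The mean of PDGFRB was 4.32 CPM at 2 dyne/cm2 and 0.801 in set 1, and that of DCN, which was not tested, was 2.24 and 0.366 CPM. The part of these markers in the results by shear stress was not tested. Libraries of the same donor deviated together, and donor 2 stood apart for several of the genes described here, so values are given per donor. They are compared between libraries for 1 gene, never between genes, since gene lengths were not used.

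Of the 9 genes, 7 had at least 1 CPM in at least 3 libraries and entered the tests. IL1RL1, which encodes the receptor of IL33 (ENSSSCG00000032795, chromosome 3, 51868549 to 51902454, Sscrofa11.1), had 2 counts in all 12 libraries together, 1 at 2 dyne/cm2 in donor 2 and 1 in set 2 in donor 3. LIF also failed the filter and is described with the IL6 family ligands below. IL11 passed in all comparisons except 80 against 2 dyne/cm2.

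IL6ST, the signalling chain shared by the receptors of IL6, IL11 and LIF (ENSSSCG00000016916, chromosome 16, 35101304 to 35151832), was higher in every library at 2 dyne/cm2 than in any other library. It stood at 1794, 1793 and 1771 CPM in donors 1, 2 and 3 under 2 dyne/cm2. In set 1 it was 751, 1130 and 469 CPM, and in set 2 it was 846, 1149 and 564 CPM. It was 425, 654 and 482 CPM under 80 dyne/cm2, the lowest library of the donor in donors 1 and 2 but not in donor 3, where set 1 was lower. The group means were 1786 ± 12.8, 783 ± 332, 853 ± 292 and 520.05 ± 119 CPM (SD, n = 3) at 2 dyne/cm2, set 1, set 2 and 80 dyne/cm2, so the donors lay closest together at 2 dyne/cm2. In RNA from whole cultures, fewer cells of a type and less RNA per cell cannot be told apart.

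Against set 1, IL6ST rose 2.45-fold at 2 dyne/cm2, a log2 fold change of 1.29 with a standard error (SE) of 0.26 and an adjusted p = 0.0262 in the quasi-likelihood test of edgeR with the donor as a block. This call was lost without the donor block, with a log2 fold change of 1.20 and an adjusted p = 0.0584. It was also lost without donor 1, with an adjusted p = 0.0524, and without donor 3, where the log2 fold change of 0.97 fell short of 2-fold. Against set 2, the log2 fold change at 80 dyne/cm2 was -0.68 (SE 0.15, adjusted p = 0.038). This decrease passed the p threshold and not the 2-fold threshold. The adjusted p was 0.6 without the donor block, 0.00144 without donor 1, 0.12 without donor 2 and 0.0787 without donor 3. It was 0.106 with all 12 libraries in 1 fit and 0.101 with both sets as control. Against set 1 the log2 fold change was -0.53 (adjusted p = 0.314), and the log2 ratio within donor 3 was 0.04. Directly compared, IL6ST was 3.52-fold lower at 80 than at 2 dyne/cm2 (log2 fold change -1.81, SE 0.17, adjusted p = 0.0019), and it was lower in 3 of 3 donors.

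IL11, a ligand that signals through IL11RA and IL6ST (ENSSSCG00000040725, chromosome 6, 59540482 to 59544909), moved the opposite way at 2 dyne/cm2, from a low level of 13 to 101 counts per library. Levels of 0.462, 0.419 and 0.627 CPM were found in donors 1 to 3 under 2 dyne/cm2, against 2.30, 1.89 and 2.52 CPM in set 1. In set 2 it was 0.808, 1.30 and 1.02 CPM, and at 80 dyne/cm2 it was 0.907, 3.11 and 1.83 CPM. The libraries at 2 dyne/cm2 were below all other libraries, and those of the 2 sets at 30 dyne/cm2 did not overlap.

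IL11 fell 4.41-fold under 2 dyne/cm2 against set 1, a log2 fold change of -2.14 (SE 0.22, adjusted p = 0.00704). The decrease was also called without the donor block, with an adjusted p = 0.0121, and with each donor left out. Against set 2 the gene did not pass the filter and was not tested, and the log2 ratio within donors was -1.63 to -0.70. Its log2 fold change at 80 dyne/cm2 against set 2 was 0.81 (SE 0.27, adjusted p = 0.111), with higher values in 3 of 3 donors. Against set 1 the value at 80 dyne/cm2 was -0.33, so the direction at 80 dyne/cm2 depended on the set.

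IL6, the ligand that gives the family its name (ENSSSCG00000020970, chromosome 9, 91506421 to 91510830), was at 9 to 267 counts per library. In donors 1 to 3 it stood at 3.57, 2.90 and 0.891 CPM at 2 dyne/cm2, at 6.14, 7.88 and 0.870 CPM in set 1, at 3.31, 3.83 and 0.662 CPM in set 2, and at 3.07, 2.52 and 0.283 CPM at 80 dyne/cm2. Donor 3 was lowest in all 4 conditions, and the groups overlapped in every comparison. The log2 fold change was -0.81 at 2 dyne/cm2 (SE 0.31, adjusted p = 0.109) and -0.49 at 80 dyne/cm2 (SE 0.24, adjusted p = 0.245). IL6 at 80 dyne/cm2 was below set 2 in 3 of 3 donors, yet neither comparison passed the test. With the other set as control the log2 fold change under the low shear stress was -0.0016, with an adjusted p = 0.997, and under the supra-high shear stress it was -1.37, with an adjusted p = 0.0898.

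LIF, a ligand that signals through LIFR and IL6ST (ENSSSCG00000040961, chromosome 14, 47221540 to 47239513), had 0 to 59 counts per library. Donor 2 had 0.742 CPM at 2 dyne/cm2, 1.74 in set 1, 0.603 in set 2 and 1.02 at 80 dyne/cm2. In donors 1 and 3, no library at 30 or 80 dyne/cm2 had more than 3 counts, while 8 and 16 counts were found at 2 dyne/cm2. No fold is given for these donors and no test was made.

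**Figure D1:**
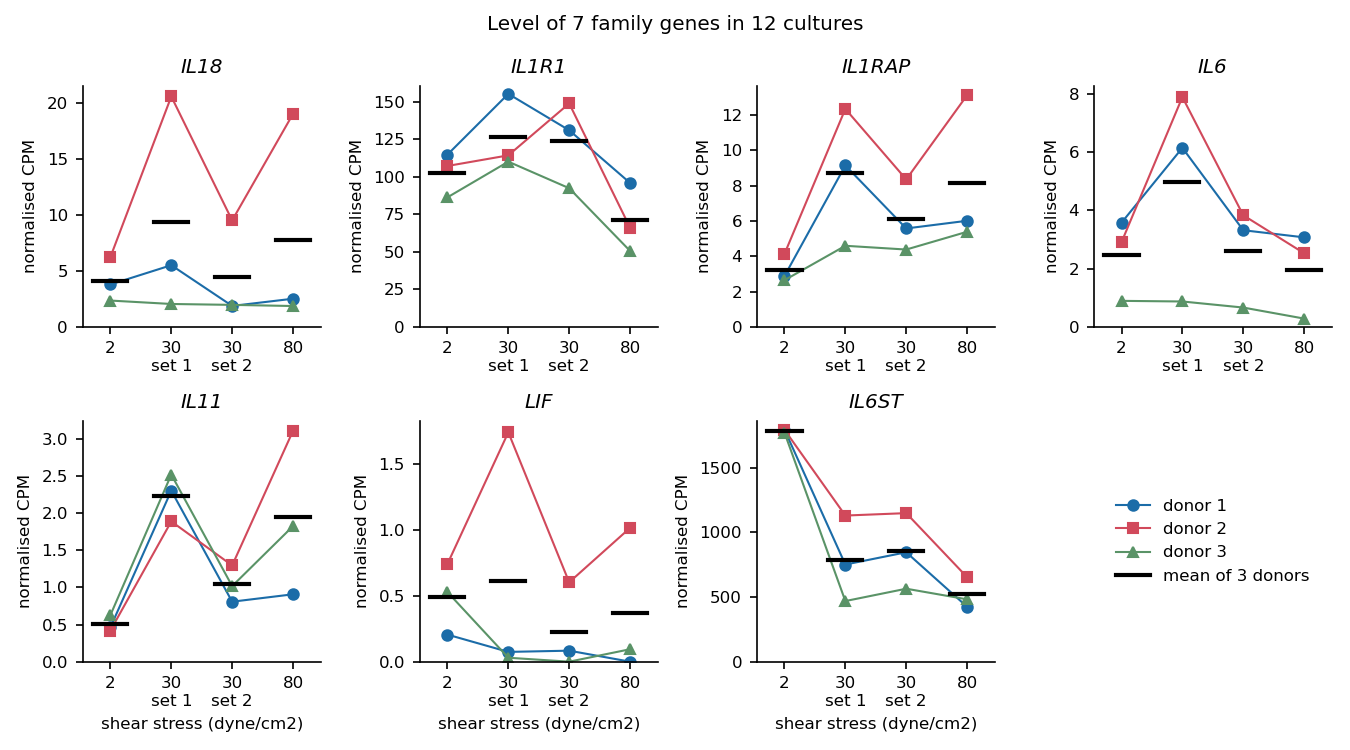
Level of 7 genes (IL18, IL1R1, IL1RAP, IL6, IL11, LIF and IL6ST), in TMM-scaled CPM on a linear axis, at 2 dyne/cm2, in set 1 and set 2 at 30 dyne/cm2 and at 80 dyne/cm2; each line joins the libraries of 1 donor and the black bar is the mean of 3 donors. IL6ST is near 1786 CPM in all donors at 2 dyne/cm2 and lower in every other library, and IL18 and LIF are highest in donor 2.

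Among the IL1 family receptors, IL1RAP, the accessory chain (ENSSSCG00000021206, chromosome 13, 127933239 to 128071984), was lower at 2 dyne/cm2 than in either set. It stood at 2.88, 4.13 and 2.64 CPM in donors 1 to 3 at 2 dyne/cm2 and at 9.14, 12.3 and 4.59 CPM in set 1. In set 2 it was 5.57, 8.35 and 4.38 CPM, and at 80 dyne/cm2 it was 6.005, 13.1 and 5.38 CPM. No library at 2 dyne/cm2 reached the lowest library of another condition.

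IL1RAP fell 2.55-fold at 2 dyne/cm2 against set 1, with a log2 fold change of -1.35 (SE 0.22, adjusted p = 0.0171). The adjusted p was 0.0698 without the donor block, 0.0525 without donor 1 and 0.0609 without donor 2. Against set 2 the log2 fold change was -0.90, under 2-fold, with an adjusted p = 0.0157. Its log2 fold change at 80 dyne/cm2 against set 2 was 0.36 (SE 0.15, adjusted p = 0.185), and against set 1 it was -0.10. IL1RAP was 2.38-fold higher at 80 than at 2 dyne/cm2, with a log2 fold change of 1.25 (SE 0.21, adjusted p = 0.00984, and 0.0748 without the donor block).

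IL1R1, the signalling receptor of IL1 (ENSSSCG00000008162, chromosome 3, 52192912 to 52334734), was lowest at 80 dyne/cm2 in every donor. Its levels in donors 1 to 3 were 115, 107 and 86.3 CPM at 2 dyne/cm2, 155, 114 and 110.1 CPM in set 1, 131, 149 and 92.4 CPM in set 2, and 95.9, 66.1 and 50.6 CPM at 80 dyne/cm2. The groups at 80 dyne/cm2 and in set 2 overlapped by 1 pair of libraries, since donor 1 at 80 dyne/cm2 was above donor 3 in set 2. The log2 fold change at 80 dyne/cm2 was -0.83 (SE 0.14, adjusted p = 0.0141), under 2-fold, and the adjusted p was 0.538 without the donor block. Without donor 1 it was -1.03 and passed both thresholds, while the adjusted p was 0.122 without donor 3 and 0.0595 against set 1. Under 2 dyne/cm2 it was -0.28 (SE 0.10, adjusted p = 0.094), with lower values in 3 of 3 donors.

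IL1A, the ligand that binds IL1R1 (ENSSSCG00000008090, chromosome 3, 43718320 to 43731668), ranged from 5 to 8139 counts per library. In donor 2 it stood at 72.7 CPM at 2 dyne/cm2, 240.2 in set 1, 90.2 in set 2 and 184 at 80 dyne/cm2. In donor 1 the levels in the same order were 38.2, 6.56, 2.23 and 5.39 CPM, and in donor 3 they were 1.02, 0.810, 0.331 and 0.157 CPM. Each condition therefore held a donor above 70 CPM and a donor at or near 1 CPM or below, and the groups overlapped in every comparison.

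The 2 sets at 30 dyne/cm2, for which IL1A was chosen, differed in the same direction in each donor. Set 2 was lower than set 1 by 2.95-fold in donor 1, 2.66-fold in donor 2 and 2.45-fold in donor 3. The fitted log2 difference was -1.44 (SE 0.09), given without a test because the gene was selected on it. Over all genes, 0.00896% were called between the sets, a share that comes from the contrast IL1A was chosen on and from which nothing is read. Beside it, IL18 was at -0.96, IL11 at -1.11, IL6 at -0.84, IL1RAP at -0.45, IL1R1 at -0.03 and IL6ST at 0.16 in log2 fold change between set 2 and set 1. Set, slide and seeding density cannot be told apart in these labels.

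For IL1A the direction of change with shear stress was not the same in the 3 donors. From set 1 to 2 dyne/cm2, the level was 5.82-fold higher in donor 1, 3.31-fold lower in donor 2 and 1.26-fold higher in donor 3. From set 2 to 80 dyne/cm2 it was 2.42-fold higher in donor 1, 2.04-fold higher in donor 2 and 2.10-fold lower in donor 3. These comparisons use the sets on which the gene was chosen and carry no test. Between 80 and 2 dyne/cm2, which uses neither set, the log2 fold change was -0.92 (SE 1.02, adjusted p = 0.535), and without donor 2 it was -2.81 with an adjusted p = 0.00221. With the mean of both sets as control, a choice made after seeing the data, the log2 fold change was 1.66 at 2 dyne/cm2 (SE 0.74, adjusted p = 0.104) and 0.21 at 80 dyne/cm2 (SE 0.68, adjusted p = 0.876).

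**Figure D2:**
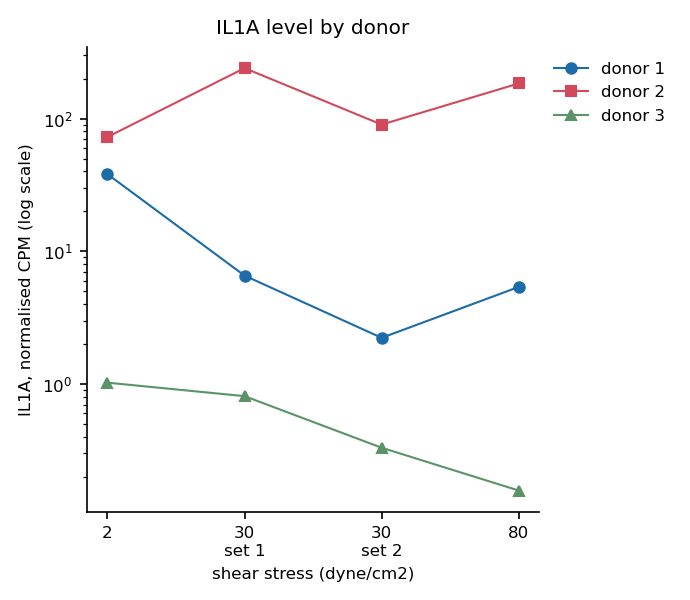
IL1A in TMM-scaled CPM on a log axis in the 4 conditions, with 1 line for each donor. Donor 2 lies above donors 1 and 3 in every condition, and in each donor set 2 lies below set 1.

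IL18, another ligand of the family (ENSSSCG00000015037, chromosome 9, 39839959 to 39861258), was also highest in donor 2. In donors 1 to 3 it stood at 3.78, 6.23 and 2.34 CPM at 2 dyne/cm2, at 5.50, 20.5 and 2.04 CPM in set 1, at 1.87, 9.49 and 1.96 CPM in set 2, and at 2.51, 19.0 and 1.86 CPM at 80 dyne/cm2. Neither comparison with 30 dyne/cm2 passed the test, with log2 fold changes of -0.74 at 2 dyne/cm2 (SE 0.39, adjusted p = 0.205) and 0.53 at 80 dyne/cm2 (SE 0.22, adjusted p = 0.181). With the other set as control both signs turned, to 0.18 and -0.46.

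**Figure D3:**
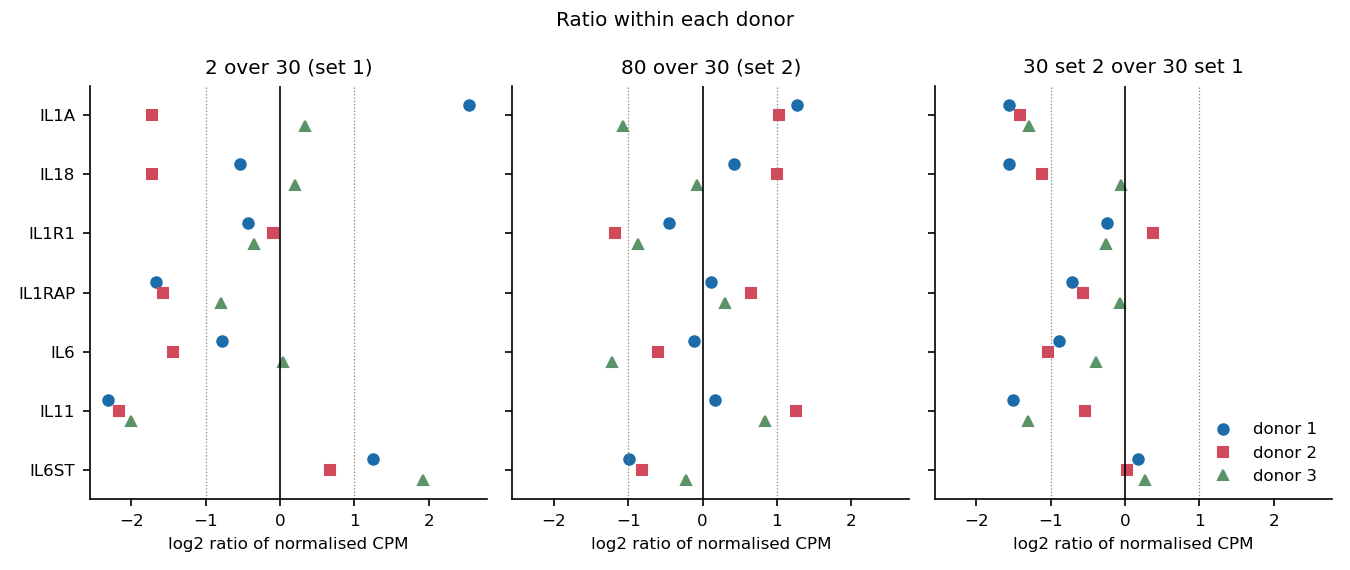
Log2 ratio of CPM within each donor for 7 genes, in 3 panels: 2 dyne/cm2 over set 1, 80 dyne/cm2 over set 2, and set 2 over set 1; dotted lines mark a 2-fold change. IL11 at 2 dyne/cm2 lies between -2.32 and -2.01 in all donors, while IL1A spans -1.72 to 2.54.

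Counted by comparison, the genes were set beside all genes tested. At 2 dyne/cm2, 3 of the 6 tested genes other than IL1A passed both thresholds (IL6ST higher, IL11 and IL1RAP lower), against 9.60% of all genes (5.06% higher, 4.54% lower). Under 80 dyne/cm2, 0 of 6 passed in edgeR and 0 in DESeq2, against 2.20% of all genes (1.14% higher, 1.05% lower), and 5 of 6 had an unadjusted p under 0.05, as had 2921 of all 11187 genes. Between 80 and 2 dyne/cm2, 2 of 6 passed (IL1RAP higher, IL6ST lower), against 13% of all genes (6.14% higher, 6.89% lower). When the mean of 2 and 80 dyne/cm2 was compared with the mean of both sets, 0 of 7 passed in edgeR and 0 in DESeq2, against 1.39% of all genes (0.337% higher, 1.05% lower), and 4 of 7 had an unadjusted p under 0.05, as had 3466 of all 11568 genes. In that comparison IL1R1 had a log2 fold change of -0.57 (SE 0.10, adjusted p = 0.0101), IL1RAP one of -0.51 (SE 0.14, adjusted p = 0.0451) and IL1A one of 0.93 (SE 0.59, adjusted p = 0.318).

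The response at 80 dyne/cm2 was then compared with the response at 2 dyne/cm2, each against its own set, by a test of the difference itself over 12 libraries. IL1RAP differed by 1.72 on the log2 scale (SE 0.27, adjusted p = 0.00141), IL11 by 2.99 (SE 0.52, adjusted p = 0.00221) and IL6ST by -1.99 (SE 0.31, adjusted p = 0.0012). These were 3 of 6 genes, against 37.1% of all genes (17.9% higher, 19.3% lower). For IL1RAP the adjusted p was 0.0776 without the donor block. IL1R1 differed by -0.56 (SE 0.20, adjusted p = 0.0521), IL18 by 1.21 (SE 0.57, adjusted p = 0.123) and IL6 by 0.32 (SE 0.39, adjusted p = 0.553), none of which passed in edgeR. For IL1R1 the adjusted p was 0.0329 in DESeq2 and 0.0388 without donor 1, so it passed in both.

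Differences between donors were wide for IL1A, IL18 and IL6. Over 12 libraries the mean of IL1A was 13.1 CPM in donor 1, 147 in donor 2 and 0.580 in donor 3. The ratio between the highest and the lowest donor was 252.9. Only 32 of 11568 genes (0.277%) had a ratio as wide, and the median over all genes was 1.24. The ratio was 6.74 for IL18 and 6.33 for IL6, which 2.68% and 2.85% of genes reached. For IL1RAP it was 2.23, and for IL11, IL1R1 and IL6ST it was between 1.44 and 1.498. Within donors, IL1A at 80 dyne/cm2 was 7.08-fold lower than at 2 dyne/cm2 in donor 1, 2.53-fold higher in donor 2 and 6.50-fold lower in donor 3. The highest and lowest means of the 4 conditions, those of set 1 and set 2, differed by a ratio of 2.67. Both sets were at 30 dyne/cm2 and IL1A was chosen on this contrast, so that ratio does not measure shear stress.

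Donor 2 was the highest donor for 6 of the 7 genes that passed the filter, and for 29.9% of all genes. In a list of NF-kB inducible genes, donor 2 was highest for 16 of 16 genes, with a median level 2.28 times the mean of the other donors, against 0.978 over all genes. The lists were written from general knowledge with earlier results of these data known. Donor 2 was highest for 30.8% of 13 genes of IL1 receptor signalling, 45.5% of 11 genes of JAK and STAT3 signalling and 36.4% of 11 STAT3 target genes. In the shorter lists of both pathways the share was 0% to 60%. The summed smooth muscle and fibroblast markers given above were lowest in donor 2, where COL1A2, the largest part of the sum in donors 1 and 3, had a mean of 2.55 CPM against 105.5 and 121 CPM. Of the same markers LUM, MYH11 and CNN1 were highest in donor 2. For leukocytes, the marker sum was 11.3 to 28.9 CPM in donor 2, against 8.35 to 15.4 in donor 1 and 11.6 to 24.4 in donor 3. The part of these markers in the donor difference was not tested.

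The genes whose pattern lay closest to that of IL1A were found from log2 CPM centred within each donor, by the root mean square difference over 12 libraries among 10138 genes. They were TNFAIP6 (0.447), TNIP3 (0.481), TNFAIP3 (0.492), TNFAIP8L1 (0.635) and ARNT2 (0.676), against a median of 1.14 over all genes compared. TNFAIP6 in donor 2 was at 8.29, 42.4, 16.5 and 39.7 CPM at 2 dyne/cm2, in set 1, in set 2 and at 80 dyne/cm2. In donor 1 it was at 5.29, 1.24, 0.362 and 0.721 CPM in the same order. As for IL1A, TNFAIP6 was highest at 2 dyne/cm2 in donor 1 and lowest there in donor 2. ARNT2 was also highest at 2 dyne/cm2 in donor 1, at 4.265 CPM, but in donor 2 it was highest there too, at 67.3 CPM.

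The remaining genes of both pathways were taken from 9 lists of ligands, receptors, signalling proteins and target genes, 97 genes in all besides those above. Of these 80 were found in the table by symbol, and 63 or 64 could be tested in each comparison. At 2 dyne/cm2, 9 of 63 (14.3%) passed both thresholds, 1 higher and 8 lower, and at 80 dyne/cm2 2 of 64 (3.12%) passed, 1 higher and 1 lower. Between 80 and 2 dyne/cm2, 10 of 63 (15.9%) passed, 7 higher and 3 lower. These shares stand beside the 9.60%, 2.20% and 13% of all genes given above, as do the counts of each list below.

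Genes were looked up by symbol, which 68.9% of the genes in the table had, so a gene not found may still be there. Of 10 further IL1 family ligands and decoys written, 1 was found in this way. It was IL33, a nuclear cytokine of ECs that is released on damage and binds IL1RL1, and it was lower at both extremes of shear stress. Under 2 dyne/cm2 it stood at 113, 152 and 128 CPM in donors 1 to 3, against 577, 434 and 275 CPM in set 1. Under 80 dyne/cm2 it stood at 239, 237 and 352 CPM, against 669, 702 and 751 CPM in set 2. IL33 fell by 1.64 on the log2 scale at 2 dyne/cm2 (SE 0.25, adjusted p = 0.0149) and by 1.39 at 80 dyne/cm2 (SE 0.12, adjusted p = 0.00291). At 80 dyne/cm2 the adjusted p was 0.369 without the donor block, and against set 1 the log2 fold change was -0.61 with an adjusted p = 0.435.

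SIGIRR, a receptor that dampens IL1 signalling, was 6.56-fold lower at 2 dyne/cm2 than in set 1 (log2 fold change -2.71, SE 0.31, adjusted p = 0.00835). Its mean was 2.98 ± 0.742 CPM at 2 dyne/cm2, 20.0 ± 5.46 in set 1, 20.3 ± 4.16 in set 2 and 24.7 ± 4.24 at 80 dyne/cm2 (SD, n = 3). At 2 dyne/cm2 no other IL1 family receptor on the list had enough counts to be tested, and IL1RL2, IL1RAPL1 and IL1RAPL2 were at 0 in all libraries. In the list of IL1 receptor signalling, 1 of 13 genes passed at 2 dyne/cm2, against 9.60% of all genes. It was IRAK2, a kinase that acts after MYD88, with a log2 fold change of -1.32 (SE 0.17, adjusted p = 0.0103, and 0.0759 without the donor block). Against set 2 it was -0.97, under 2-fold.

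Among genes of IL1 processing and release, 1 of 4 tested genes passed at 2 dyne/cm2, and this was NLRP3, the sensor of an inflammasome. Its log2 fold change was -1.96 (SE 0.51, adjusted p = 0.0472), and the adjusted p was 0.331 without the donor block, 0.0863 without donor 2, 0.0976 without donor 3 and 0.391 against set 2. Between 80 and 2 dyne/cm2, CAPN2, a calpain protease, was higher by 1.14 on the log2 scale (adjusted p = 0.00234), and GSDMD, which forms pores in the membrane, fell by 1.04 (adjusted p = 0.0195, and 0.0511 without donor 3).

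In the list of NF-kB inducible genes, 3 of 16 passed at 2 dyne/cm2, all lower. They were NFKBIZ, a nuclear regulator of NF-kB, at -1.29, PTGS2, a prostaglandin synthase, at -1.21, and ICAM1, an adhesion molecule for leukocytes, at -1.02 in log2 fold change, with adjusted p of 0.043, 0.00665 and 0.0125. Without the donor block these adjusted p were 0.198, 0.175 and 0.0678, and against set 2 NFKBIZ was at -0.42, ICAM1 at -0.90 and PTGS2 at 0.37, none past both thresholds. Without donor 2, NFKBIZ was at -0.86 and ICAM1 at -0.90, both under 2-fold, and without donor 3 the adjusted p of NFKBIZ was 0.122 and ICAM1 was at -0.95. Under 80 dyne/cm2, 1 of 16 passed, the growth factor CSF2 at 1.53 (SE 0.14, adjusted p = 0.00357, and 0.861 without the donor block and 0.0528 without donor 2). Against set 1 it was 0.33. CSF2 stood at 2.16, 85.1 and 2.64 CPM at 80 dyne/cm2 and at 0.613, 27.96 and 1.17 CPM in set 2. Over the list, the median log2 fold change was -0.12 under the low and 0.22 under the supra-high shear stress, beside 0.003 and -0.006 over all genes.

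For the IL6 family receptors, 2 of 5 tested genes passed at 2 dyne/cm2, in opposite directions. OSMR, the receptor chain for oncostatin M that pairs with IL6ST, stood at 12.4, 18.2 and 11.3 CPM in donors 1 to 3 at 2 dyne/cm2, against 32.9, 43.0 and 33.9 CPM in set 1. It fell by 1.39 on the log2 scale (SE 0.11, adjusted p = 0.00409), and the groups did not overlap. IL6R, the receptor that binds IL6, stood at 9.97, 11.001 and 16.045 CPM, against 5.45, 4.604 and 7.62 CPM. It rose by 1.08 (SE 0.13, adjusted p = 0.00917, and 0.0558 without the donor block), and without donor 2 or against set 2 it was under 2-fold, at 0.99 and 0.81. Between 80 and 2 dyne/cm2 OSMR was higher by 1.39 and IL11RA, the receptor that binds IL11, fell by 1.14, or by 0.84 without donor 3. The decreases of IL33, SIGIRR and OSMR at 2 dyne/cm2 passed both thresholds under every alternative run.

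**Figure D4:**
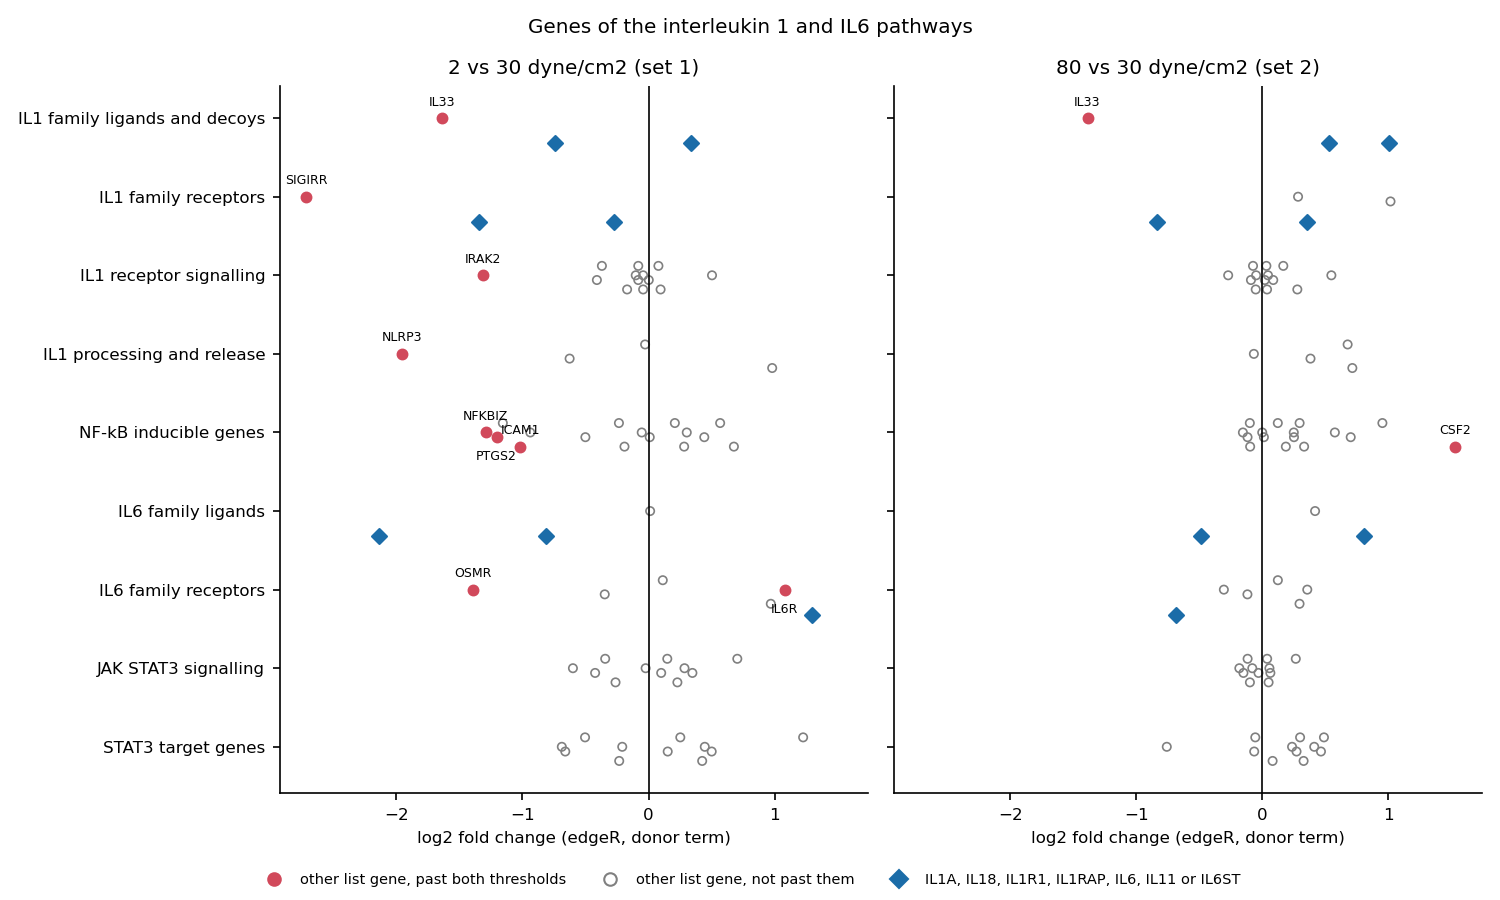
Log2 fold change of the tested genes of the 9 lists at 2 dyne/cm2 against set 1 and at 80 dyne/cm2 against set 2; filled red points passed both thresholds, open grey points did not, and blue diamonds are the genes described one by one. At 2 dyne/cm2, 8 of the 9 red points lie below 0, and at 80 dyne/cm2 there are 2 red points.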

How the data were processed

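RNA of 12 cultures was sequenced. Per the labels, the authors aligned single-end reads with STAR 2.4 to the Sscrofa11.1 genome, dropped those with several positions and used featureCounts 1.4.6 on the merged exons of each gene; the deposited values are raw counts, not normalized. Of 21153 genes, 14572 (68.9%) were given a symbol, and positions come from RefSeq of the same assembly. The main test was the quasi-likelihood test of edgeR 4.0.16 with TMM scaling, in R 4.3.3, on genes that reached 1 CPM in 3 or more libraries of a comparison. Genes passed at a 2-fold change and a Benjamini-Hochberg adjusted p under 0.05 over all genes tested; the difference between responses used the adjusted p alone. The SE is the log2 fold change divided by the square root of F. The paper filters by RPKM, which needs gene lengths that were not used here.

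The donor was a block in the main design, because the methods compare cultures of the same donor and passage and the source names carry a donor code for each replicate number. Same-numbered libraries deviated together over 11568 genes (r of 0.672 to 0.876 in 18 pairs, and -0.552 to -0.19 in the 36 pairs of different number and condition). Each gene was first centred on the mean of its condition, so the negative values follow from the positive ones and nothing is read from them. Alternatives were no donor block, relative log expression scaling, DESeq2 1.42.0, no filter, filterByExpr, the adjusted p alone, all 12 libraries in 1 fit, a control made of the other set or of both sets, and each donor left out; the control of both sets was added after seeing the data.

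The genes, lists and tests were chosen with earlier results of these data known. All 9 genes were named, and of the lists those that passed in a comparison, at most 4 per list and comparison, and the 5 genes most like IL1A. One gene that this rule takes is not reported here. On simulated data, 98% to 100% of genes changed by 1.5 on the log2 scale were found in the 4 comparisons between pairs of groups, and 83% for the difference between responses. Smaller changes were not simulated. False calls were 15 of 212 at 2 dyne/cm2 against set 1, 11 of 193 for the difference between responses and 0 to 3 in the other comparisons. The groups had 3 replicates each, which limits precision.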

Additional observations from a re-analysis of the deposited data

Results flagged for a closer look

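For 3 genes, the response at 80 dyne/cm2 against set 2 differed from the response at 2 dyne/cm2 against set 1 in the test of the difference over 12 libraries. They were 3 of the 6 tested genes other than IL1A, against 37.1% of all genes. On the log2 scale the difference was 1.72 for IL1RAP, whose response was -1.35 under the low and 0.36 under the supra-high shear stress. The same difference was 2.99 for IL11, with responses of -2.14 and 0.81, and -1.99 for IL6ST, with responses of 1.29 and -0.68. With these controls, the sign of each gene was the same in 3 of 3 donors at each shear stress and opposite between them. The difference between set 2 and set 1 enters this contrast, and it was -1.11 for IL11, -0.45 for IL1RAP and 0.16 for IL6ST. Against set 1, the log2 fold change at 80 dyne/cm2 was -0.33 for IL11, -0.10 for IL1RAP and -0.53 for IL6ST. At 80 dyne/cm2 the signs of IL11 and IL1RAP therefore depended on the set. The part of the sets was not tested.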

How the results depend on the processing

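At 2 dyne/cm2 the count of 3 genes passing became 1 without the donor block (replicate block) and 1 with set 2 as control, where IL11 failed the filter, and was 1 to 2 when a donor was left out (1 without donor 1). At 80 dyne/cm2 the count of 0 became 2 with the adjusted p alone, and was 0 to 2 with a donor left out (2 without donor 1, IL1R1 and IL11). Between 80 and 2 dyne/cm2 the count of 2 became 1 without the donor block and 3 with no filter, with filterByExpr, with all 12 libraries or without donor 1 (IL11 added), with the adjusted p alone (IL1R1 added) or without donor 2 (IL1A added). For the mean of 2 and 80 dyne/cm2 the count of 0 became 2 with the adjusted p alone. The count of genes differing between the sets, 1 in all, was 0 without the donor block or with all 12 libraries in 1 fit, 2 with the adjusted p alone, 46 without a filter, 66 with DESeq2, and 0 to 122 with a donor left out (0 without donor 1, 122 without donor 2 and 4 without donor 3). The cause was not tested.

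IL1A turned in sign without the donor block (-1.14 at 2 dyne/cm2, 0.77 between 80 and 2 dyne/cm2, -0.067 for the mean of both extremes and 2.17 for the difference between responses) and without donor 1 (-1.11, 0.65, -0.21 and 2.04); with a donor left out these 4 values ranged up to 1.88, down to -2.81, up to 1.33 and down to -1.07, all without donor 2, and the last was 0.0047 without donor 3. With the other set, values turned to -0.51 for IL1A, -0.46 for IL18, -0.10 for IL1RAP and -0.33 for IL11 at 80 dyne/cm2, and to 0.18 for IL18 and 0.37 for PTGS2 at 2 dyne/cm2. IL18 between 80 and 2 dyne/cm2 was -0.48 without donor 2, and IL1R1 between the sets was 0.072 without donor 1, 0.075 without donor 3 and -0.24 without donor 2.

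Over all genes, calls were totalled separately without the donor block and in the main fit, and shared calls were not counted. Without the block the calls were 635 against 1078 in the main fit at 2 dyne/cm2, and 0 against 246 at 80 dyne/cm2. The calls were 36 against 161 for the mean of both extremes and 1746 against 4294 for the difference between responses. With the adjusted p alone they were 2895, 940, 3501 (1465 between 80 and 2 dyne/cm2) and 1260. At 80 dyne/cm2 they were 24 with set 1, 136 with all 12 libraries and 102 with both sets as control. Genes with few counts, such as LIF and IL1RL1, could not be tested at this depth.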

Other observations

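Further along the IL6 pathway, the genes of JAK and STAT3 signalling were compared by the test of the difference between the responses, which uses the adjusted p alone. Of these 11 genes 6 passed, 3 higher and 3 lower, against 37.1% of all genes. JAK2, a kinase bound to cytokine receptors, differed by 0.64 on the log2 scale (SE 0.15, adjusted p = 0.00977), and PIAS3, an inhibitor of STAT3, by 0.68 (SE 0.16, adjusted p = 0.0101). Without donor 3 these adjusted p were 0.0773 and 0.106, that of JAK2 was 0.0693 without donor 2, and that of PIAS3 was 0.0662 without the donor block.

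Among STAT3 target genes, 3 of 11 differed between the responses, against 37.1% of all genes. PIM1, a survival kinase, differed by -1.22 (SE 0.28, adjusted p = 0.00857), BCL6, a transcriptional repressor, by 1.08 (SE 0.19, adjusted p = 0.0024), and HIF1A, the oxygen-sensitive transcription factor, by 0.78 (SE 0.23, adjusted p = 0.0231). The call of PIM1 was lost without the donor block (adjusted p = 0.123), without donor 2 (0.0751) and without donor 3 (0.0867), and that of BCL6 without donor 3 (0.0548). For HIF1A the adjusted p was 0.0908 without the donor block, 0.125 without donor 1 and 0.0558 without donor 2. SIGIRR and OSMR differed by 2.96 (SE 0.31, adjusted p = 0.000183) and by 1.67 (SE 0.15, adjusted p = 0.000105).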
